A study of Mus musculus with 40 samples.

Results

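Adipocyte conversion was compared between brown preadipocyte lines that ended with the highest and the lowest Adipoq mRNA after weak lines were left out. The series holds 20 immortalised lines from brown adipose tissue of C57BL/6 mice, at passage 6 to 12. Each line gave 1 library of undifferentiated cells and 1 library taken on day 8 after induction with IBMX, dexamethasone, indomethacin, T3 and insulin, so the series has 40 libraries. Medium with T3 and insulin was renewed every other day after induction. The 2 lines with the lowest Adipoq on day 8, C6 and D5, were left out, and the other 18 lines were ranked by the Adipoq count of the day 8 library scaled to its total gene counts (CPM). The 5 lines at the top (D4, B1, A2, A5 and D6) are called the high-Adipoq lines and the 5 at the bottom (B5, B6, A3, C5 and B3) the low-Adipoq lines. These 10 lines account for 20 of the 40 libraries, and the 8 lines between them are the middle lines. All lines share the strain, the tissue, the immortalisation and the same induction mixture, and the labels state neither how the cells were immortalised nor whether a line is 1 clone. The lines are the replicates, with 1 library per line and stage, so growth of the same line was not repeated. The labels do not say which animals the lines came from or what the letter in a line's name stands for. By letter the high class holds 2 A, 1 B and 2 D lines and the low class 1 A, 3 B and 1 C line, so lines of a class may share an origin, and p-values that take the lines as independent may then be too small.

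Adipoq encodes adiponectin, a hormone secreted by mature fat cells and a late gene of the adipocyte programme. In that programme an early wave of C/EBP-beta and C/EBP-delta is followed by PPAR-gamma and C/EBP-alpha, which hold each other up and switch on genes for lipid uptake, triglyceride storage and adipokines. Brown adipocytes add many mitochondria and, when stimulated, the uncoupling protein UCP1, which releases the energy of respiration as heat. Preadipocytes carry mesenchymal surface proteins such as PDGFR-alpha, Sca-1 (Ly6a) and CD34, and their conversion is held back by factors such as Dlk1, Gata2, Gata3 and Wnt10b.

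The classes were chosen by the day 8 Adipoq level itself, so these values describe the choice and carry no test. In the high-Adipoq lines Adipoq stood at 1214 CPM in D4, 1188 in B1, 1068 in A2, 1032 in A5 and 999 in D6. In the low-Adipoq lines it was 716 CPM in B5, 710 in B6, 655 in A3, 539 in C5 and 499 in B3. The class means were 1100 ± 95.7 CPM (SD, n = 5) and 624 ± 99.7 CPM (SD, n = 5), a 1.76-fold ratio, and the 8 middle lines averaged 849 ± 81.9 CPM. The lines form a continuous range with no step at either border. B4, just outside the high class, had 989 CPM, and D6 was 0.926% above it. C3, just outside the low class, had 717 CPM, 0.152% above B5. With levels scaled by TMM, a correction for the composition of each library, C3 took the place of B5 in the low class and 9 of the 10 lines remained. All later levels are TMM-scaled CPM. The lines left out lay far lower, at 213 CPM in D5 and 14.7 CPM in C6.

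The order of the lines by Adipoq was shared in part by other fat cell genes. Ranking by Cebpa or by Adrb3 put 7 of the 10 lines back into their class, and ranking by Fabp4 or by Cfd put 6 of 10 there. The rankings by Cebpa and Adrb3 were chosen after seeing the data. Adrb3 and Cfd are also among the genes that kept these classes apart in the same libraries, so their agreement is partly built in. For Pparg the number was 5 of 10, with 1 line in the opposite class. For Plin1, the lipid droplet coat protein, 4 of 10 lines were shared and 2 were in the opposite class, and the same numbers were found for Cd36, a fatty acid transporter. The mean of the 25 other genes of a list of adipocyte genes shared 4 of 10 lines and placed 1 in the opposite class. A ranking unrelated to Adipoq would also return some lines to their class, so 4 of 10 need not show a shared order. In the low-Adipoq lines Plin1 was 534 CPM in B5, 594 in B6 and 484 in B3, but 243 in A3 and 229 in C5. In the high-Adipoq lines it was 410 CPM in D4, 657 in B1, 504 in A2, 422 in A5 and 574 in D6. The classes overlap, with B5, B6 and B3 inside the range of the high-Adipoq lines and A3 and C5 below it. The lines are called by their Adipoq level and not by a degree of conversion, which these genes would order differently.

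**Figure D1:**
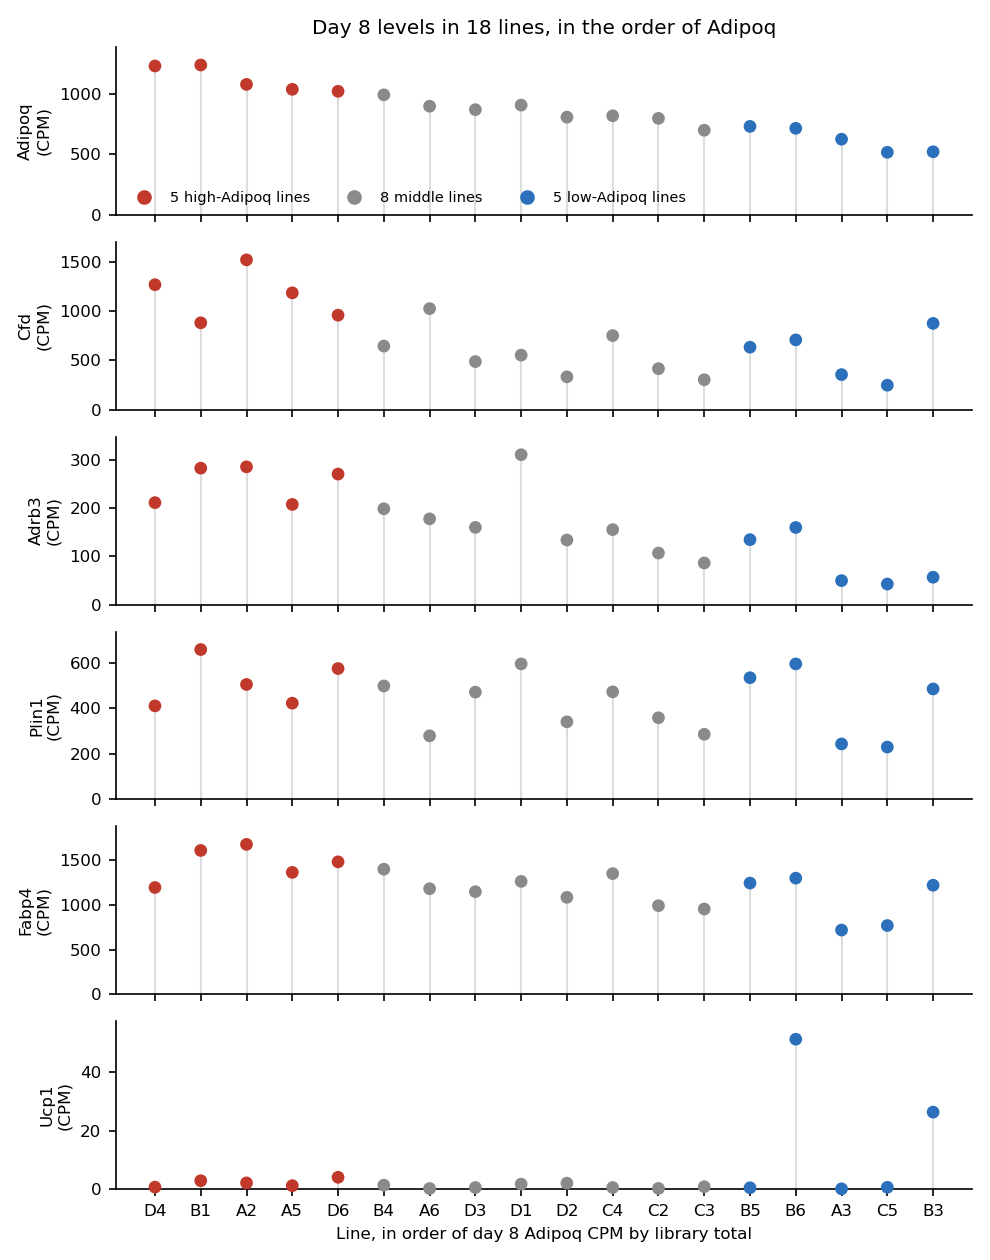
Day 8 levels of 6 fat cell genes (vertical axes, TMM-scaled CPM from 0) in the 18 lines, ordered along the horizontal axis by Adipoq CPM per library total; each point is 1 library, coloured by class. Cfd and Adrb3 keep the high and low classes apart, Plin1 and Fabp4 do not, and the highest Ucp1 levels are in the low-Adipoq lines B6 (51.2 CPM) and B3 (26.3 CPM).

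In day 8 libraries few genes kept the classes apart. Of 14147 genes that passed the count filter, 65 were higher in every high-Adipoq line than in every low-Adipoq line (0.459% of the genes) and 38 were lower in every one (0.269%). With a ratio of the class means of at least 2-fold as well, 13 genes were higher (0.0919%) and 6 lower (0.0424%). Because the same libraries were used to choose the lines, these counts are a description. A split of these lines unrelated to Adipoq would also leave some genes without overlap, so the counts need not reflect Adipoq. Whether they exceed the number from such a split was not tested. Adipoq is 1 of the 65 by the choice of the lines, which leaves 64 others. The median log2 difference over all 14147 genes was 0.03. The sum of 19 genes depends on single lines, partly because fewer lines overlap less easily. It was 78 without B1, 29 without D6, 70 without B5, 117 without B6, 56 without A3 and C5, and 64 with the classes ranked by TMM-scaled Adipoq. For 90 of the 103 genes without overlap, the median of the middle lines lay between the class means. In bulk libraries such as these, fewer converted cells and less mRNA per cell cannot be told apart.

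The genes named here are those with the largest log2 differences among genes without overlap that reached 10 CPM in the higher class. Higher in the high-Adipoq lines, the secreted proteins and surface receptors among them were Apoc3, Adrb3 and Cfd. Apoc3 is an apolipoprotein of triglyceride-rich lipoproteins. Apoc3 was 39.5 CPM in D4, 45.4 in B1, 52.3 in A2, 54.3 in A5 and 67.5 in D6, against 26.6 in B5, 13.8 in B6, 8.28 in A3, 12.7 in C5 and 19.7 in B3. The classes were apart by 1.76 on the log2 scale, yet the middle lines ranged from 4.94 to 124 CPM, wider than both classes together, so Apoc3 does not follow Adipoq across the 18 lines. Adrb3, the beta-3 adrenergic receptor through which noradrenaline drives lipolysis and heat production, was 211 CPM in D4, 282 in B1, 285 in A2, 207 in A5 and 270 in D6. It was 134 CPM in B5, 160 in B6, 49.6 in A3, 42.5 in C5 and 56.6 in B3. Every low-Adipoq line was below every high-Adipoq line, and within the low class B5 and B6 stood well above the other lines (log2 difference 1.71). Cfd, the serine protease adipsin, averaged 1164 ± 255 CPM against 565 ± 258 CPM (SD, n = 5 each). B1 at 883 CPM and the low-Adipoq line B3 at 877 CPM nearly met, and the middle lines had 304 to 1027 CPM.

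The other 7 named genes on the higher side have varied roles. Rasd1, a small G protein induced by dexamethasone, averaged 65.5 ± 12.3 CPM in the high-Adipoq and 26.2 ± 11.4 CPM in the low-Adipoq lines (SD, n = 5 each). Car5b, a mitochondrial carbonic anhydrase that supplies bicarbonate for carboxylation, was 642 ± 116 against 275 ± 123 CPM. Slc43a1, a carrier of large neutral amino acids, averaged 82.8 against 36.3 CPM. Chst1, a keratan sulphate sulphotransferase, averaged 46.4 against 22.4 CPM, with its highest value in D4 (80.9 CPM) and its lowest in B6 (5.96 CPM). Ankrd5, Crip2 and Dusp4, the last a phosphatase of MAP kinases, had log2 differences of 1.40, 0.93 and 0.93. Of the genes in all lists, 8 stayed apart on the higher side and 4 on the lower side, where 0.459% and 0.269% of all genes did. At those shares the lists together could hold some such genes. The 8 include Cfd, Adrb3 and Adipoq, the last by the choice of the lines. The other 5 were Glul, glutamine synthetase (1279 against 714 CPM), Acsl1, which activates fatty acids (1065 against 648 CPM), Gpam, the first enzyme of triglyceride assembly (165 against 107 CPM), Rxra, the partner receptor of PPAR-gamma (258 against 185 CPM), and Lrp6, a Wnt coreceptor (255 against 214 CPM).

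On the lower side, Tgfbi, a matrix protein induced by TGF-beta, had the largest difference among genes that reached 10 CPM in the higher class, -1.50 on the log2 scale. Tgfbi was 21.5 CPM in D4, 29.3 in B1, 14.3 in A2, 29.0 in A5 and 13.4 in D6, against 46.6 in B5, 38.9 in B6, 139 in A3, 77.6 in C5 and 32.5 in B3. A3 and C5 were the highest of the 10 lines, and B3 stood just above B1. Metrnl, a hormone-like secreted protein of fat and muscle, averaged 12.6 ± 1.70 against 25.4 ± 8.64 CPM (SD, n = 5 each). Hk1, the hexokinase that most cells use to trap glucose, averaged 73.2 ± 22.04 against 128 ± 10.1 CPM. Pgcp, a secreted carboxypeptidase, averaged 42.3 against 90.3 CPM, and Ak1, which balances adenine nucleotides, 32.7 against 57.4 CPM. Jun, a subunit of the AP-1 transcription factor, averaged 60.9 against 109 CPM, with B3 at 166 CPM far above the other 4 low-Adipoq lines (80.6 to 100.2 CPM). Gdpd1, a phosphodiesterase of lysophospholipids, Fbxl15, the substrate-binding part of a ubiquitin ligase, Myo10, the myosin of filopodia, and 4930503L19Rik had differences from -0.79 to -0.68. Runx2, the regulator of bone formation, averaged 9.51 against 14.9 CPM and En1, a homeobox factor of the dermomyotome, 9.84 against 15.9 CPM, both without overlap.

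**Figure D2:**
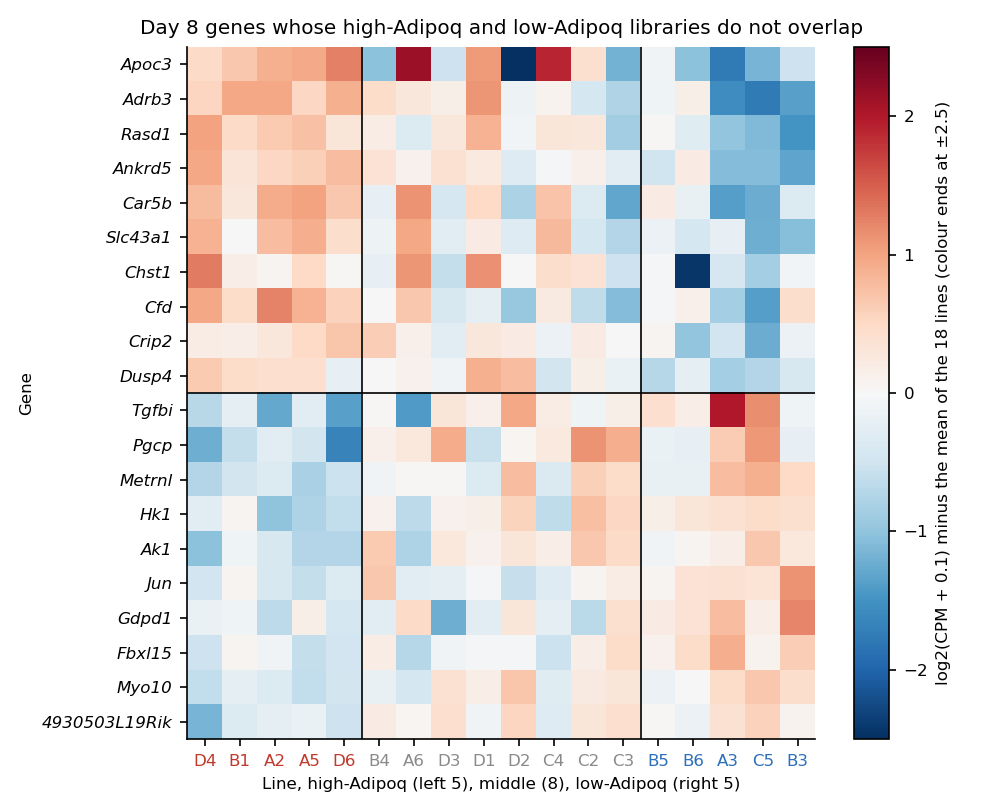
Day 8 levels of the 10 genes with the largest difference in each direction among genes without overlap and with at least 10 CPM in the higher class, as log2(CPM + 0.1) minus the mean of the 18 lines (colour) for each gene (vertical axis) and line (horizontal axis). The upper 10 genes are higher in the left 5 columns than in the right 5, and the middle columns are mixed, as for Apoc3, which ranges there from 4.94 to 124 CPM.

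Fat cell genes as a group were higher in the high-Adipoq lines, but the difference came mainly with A3 and C5. Adipoq, which chose the lines, is 1 of the 26 adipocyte genes. Of the 25 others, 24 had a higher class mean of log2 CPM in the high-Adipoq lines, with a median log2 difference of 0.52. Of these, 2, Cfd and Acsl1, kept the classes apart, as 0.459% of all genes did on the higher side. List genes are counted as higher or lower by mean log2 CPM here and below. Its direction can differ from that of the mean CPM. Over all genes 54.6% were higher. Without A3 and C5 the median was 0.16 and 17 of 25 were higher, against a median over all genes of 0.0008. Leaving out these lines together was chosen after seeing the data. The mean level of the list, set against the mean of the 18 lines, was -0.92 in A3 and -0.78 in C5 on the log2 scale, whereas B5, B6 and B3 had 0.05, 0.33 and -0.01. The high-Adipoq lines ranged from 0.06 in A5 to 0.56 in B1. Fabp4, the fatty acid binding protein of fat cells, illustrates the split with 718 CPM in A3 and 769 in C5, but 1244 in B5, 1299 in B6 and 1220.3 in B3. Its high-Adipoq range of 1195 to 1678 CPM holds B5, B6 and B3 and leaves A3 and C5 below. Lpl, which frees fatty acids from lipoproteins, was 1910.3 CPM in A3 and 1986 in C5 and at least 3277 CPM in the other 8 lines.

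Triglyceride and lipolysis genes had the same shape. Of 17 lipid droplet and lipolysis genes, 16 were higher in the high-Adipoq class, with a median of 0.52 that was 0.21 without A3 and C5. Of the 17 genes 0 kept the classes apart, where 0.459% of all genes did on the higher side, so 0 is near that share. Pnpla2, the first triglyceride lipase, averaged 1690 against 982 CPM and Lipe, hormone-sensitive lipase, 812 against 530 CPM. Of 11 triglyceride synthesis genes 10 were higher, and of 19 genes of fatty acid synthesis 11 were higher, with medians of 0.42 and 0.24. Without A3 and C5 these medians were 0.04 and -0.04. Over all genes 54.6% were higher, so 11 of 19 is near that share. The fatty acid synthesis list did not share the split, with means of -0.36 in the high-Adipoq lines A2 and A5, -0.32 in A3 and -0.64 in C5. Pck1, which makes glycerol phosphate from pyruvate in fat cells, averaged 50.9 against 18.4 CPM with ranges of 5.08 to 143 and 0.19 to 45.0 CPM. Of 18 insulin signalling and glucose uptake genes 14 were higher, with a median of 0.32 that was 0.21 without A3 and C5. Irs1, the first substrate of the insulin receptor, was 308 CPM in D4, 164 in B1, 253 in A2, 201 in A5 and 254 in D6. It was 150 CPM in B5, 250 in B6, 92.5 in A3, 61.3 in C5 and 96.2 in B3, so that B6 was the single low-Adipoq line within the high-Adipoq range.

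Mitochondrial genes were uniformly higher on average and yet not ordered by Adipoq. All 45 respiratory chain genes and all 25 tricarboxylic acid cycle genes had a higher mean log2 CPM in the high-Adipoq class, with medians of 0.31 and 0.45. In either list 0 genes kept the classes apart, where 0.459% of all genes did on the higher side. At that share lists of this size could hold 0. Without A3 and C5, 7 of 45 and 12 of 25 were higher, with medians of -0.12 and -0.02. With 1 line left out, the respiratory chain median was lowest without A3 (0.15) and highest without B6 (0.49), and that of the tricarboxylic acid cycle likewise (0.24 and 0.67); without C5 they were 0.15 and 0.26. For the respiratory chain the list mean was 0.69 in B6, above all 17 other lines, and -0.65 in A3 and -0.66 in C5, below all others. It was 0.13 in B5 and 0.36 in B3, beside a high-Adipoq mean of 0.28, so B6 stood furthest above that mean. Sdha, the flavoprotein of complex II, averaged 1049 against 791 CPM, and the low-Adipoq range of 420 to 1413 CPM enclosed the high-Adipoq range of 886 to 1220 CPM. Fatty acid oxidation genes were higher in 21 of 23 cases, with a median of 0.35, and in 6 of 23 without A3 and C5, with a median of -0.11. Their median was 0.14 without A3 alone, 0.17 without C5 alone and 0.57 without B6 alone. Their list mean was 0.02 in B5, 0.68 in B6 and 0.23 in B3, beside a high-Adipoq mean of 0.23. All 18 genes of branched-chain amino acid breakdown were higher, with a median of 0.57, and 12 of 18 without A3 and C5, with a median of 0.09.

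Thermogenic genes split the low-Adipoq class in opposite directions. Ucp1 was 51.2 CPM in B6 and 26.3 CPM in B3, the highest of all 20 lines, but 0.46 in B5, 0.08 in A3 and 0.61 in C5. The high-Adipoq lines had 0.67 CPM in D4, 2.87 in B1, 2.12 in A2, 1.16 in A5 and 4.03 in D6. Cidea, a lipid droplet protein abundant in brown fat, followed the same lines, at 208 CPM in B6 and 109 in B3 and at most 50.1 CPM in the high-Adipoq lines, in D6. Cox7a1, the oxidative tissue form of a cytochrome oxidase subunit, was 134 CPM in B6, 75.6 in B5 and 79.5 in B3, against 12.4 in A3 and 12.2 in C5. The high-Adipoq lines lay between 27.9 CPM in D4 and 80.8 CPM in A2. Of 25 thermogenic genes in the files 21 passed the count filter. By mean log2 CPM 16 of these were higher in the high-Adipoq class, with a median of 0.71. Without A3 and C5 it was 7 of 21, with a median of -0.14. Cidea and Cox7a1 count as higher, at 0.71 and 0.33. Their mean CPM was lower in the high-Adipoq class, 19.6 against 64.8 and 55.3 against 62.8. The list median was 0.25 without A3 alone, 0.29 without C5 alone, 0.39 without D6 alone and 1.23 without B6 alone. Prdm16, a coregulator of brown fat identity, was 20.5 CPM in B6, 1.16 in A3 and 1.39 in C5. The mean of the list was 1.59 in B6, the highest of the 18 lines, -1.51 in A3, the lowest, and -0.89 in C5. It was 0.06 in B5 and 0.40 in B3, beside a high-Adipoq mean of 0.34, so B6 stood furthest above that mean.

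Genes of undifferentiated mesenchymal cells ran the other way, again with A3 and C5. Among 23 preadipocyte and mesenchymal genes, 20 had a lower mean log2 CPM in the high-Adipoq class, with a median of -0.75. Without A3 and C5 it was 11, with a median of 0.02. The list mean was -0.74 in the high-Adipoq, 0.43 in the middle and 0.05 in the low-Adipoq lines, so it did not follow the order of Adipoq. The list of collagens and other matrix genes had -0.64, 0.49 and -0.14. Ly6a was 731 CPM in A3 and 598 in C5, but 20.4 in B5, 4.14 in B6 and 187 in B3. In the high-Adipoq lines it was 26.7 CPM in D4, 314 in B1, 13.95 in A2, 13.2 in A5 and 43.6 in D6. Cd34 was 236 CPM in A3, 213 in C5 and 26.01 in B3, and 96.8 CPM in B1, and at most 5.42 CPM in the other 6 of the 10 lines. Middle lines were high as well, with Ly6a at 661 CPM in C3 and 549 in D2 and Cd34 at 284 CPM in C3. Pdgfra averaged 102 ± 77.9 against 205 ± 186 CPM (SD, n = 5 each). Matrix proteases and their inhibitors had a median of -0.83, collagens and other matrix genes one of -0.44, and chemokines and other inflammatory genes one of -0.77. Without A3 and C5 these medians were -0.06, 0.08 and 0.15. Without B6 alone they were -1.17, -0.62 and -1.23, without A3 alone -0.61, -0.28 and -0.44, and without C5 alone -0.52, -0.30 and -0.37. Mmp3, the matrix protease stromelysin, was 65.6 CPM in A3 and 22.7 in C5, 5.51 in B1, 1.65 in B3 and at most 0.35 CPM in the other 6 lines.

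The direction of the interferon-stimulated genes turned over without A3 and C5, when B6 was still in the low class. Of 22 genes, 21 were lower in the high-Adipoq class, with a median of -0.91, and without A3 and C5 all 22 were higher, with a median of 0.38. It did not turn with any 1 line left out. The median was -0.31 without A3 alone, -0.35 without C5 alone and -0.54 without D6 alone, and -1.84 without B6 alone, the low-Adipoq line at the other end. Ifit3, an antiviral effector, was 684 CPM in A3 and 616 in C5, but 155 in B5, 9.75 in B6 and 97.2 in B3. The high-Adipoq lines had 13.1 CPM in D4, 292 in B1, 83.8 in A2, 101 in A5 and 25.4 in D6. The lowest Ifit3 level among the 18 lines was thus in a low-Adipoq line, B6, and the highest in another, A3. The list mean followed, with -3.53 in B6, 1.73 in A3 and 1.81 in C5. It was -0.70 in B5 and -0.67 in B3, above the high-Adipoq mean of -1.20, so the turned sign rested on B6. The middle lines averaged 0.92, above both classes, with 1.76 in C2 and 1.77 in C3.

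**Figure D3:**
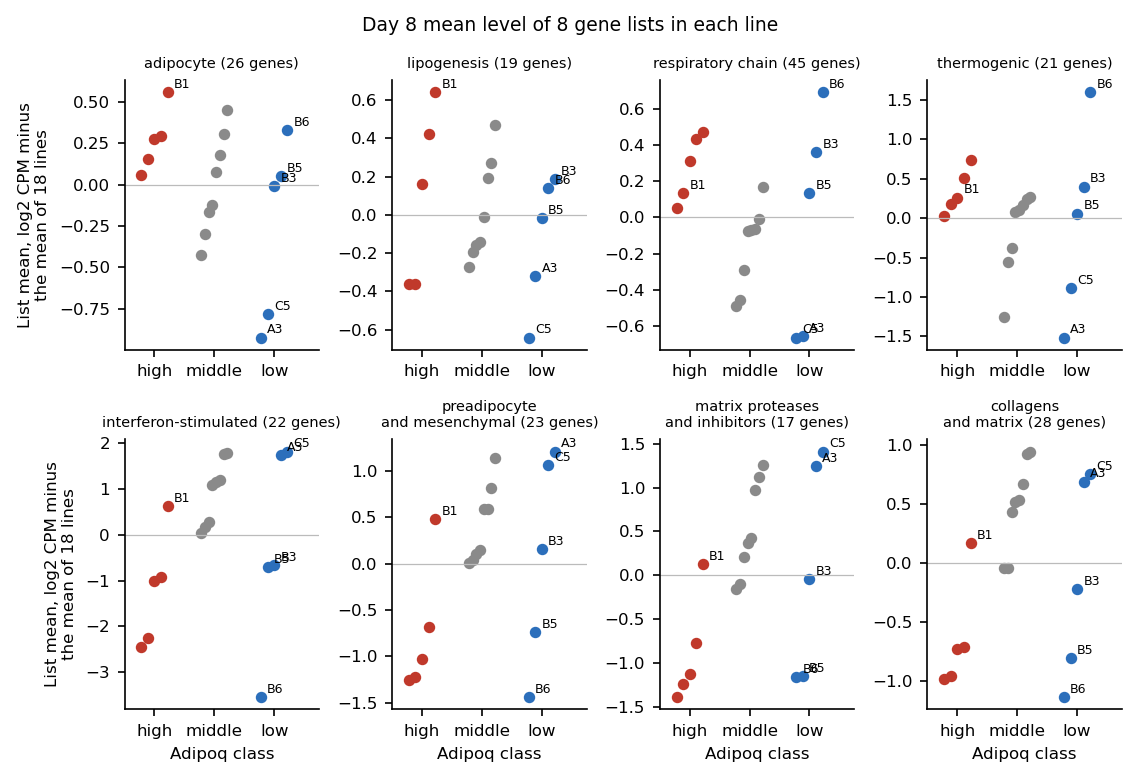
Mean day 8 level of 8 gene lists in each line (vertical axis, log2 CPM minus the mean of the 18 lines) by Adipoq class (horizontal axis); each point is 1 line and selected lines are named. In the low class A3 and C5 lie at one end and B6 at or near the other, for example -0.92, -0.78 and 0.33 in the adipocyte list, and B1 is the top high-Adipoq line in the interferon list at 0.61.

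Within the high-Adipoq class, B1 stood apart from the other lines. It had the highest mean of the adipocyte list among the 18 lines (0.56), and the second highest Adipoq level by library total, the highest with TMM scaling. It also had the preadipocyte list at 0.48, against -1.25 to -0.69 in D4, A2, A5 and D6. Dlk1, a transmembrane inhibitor of adipogenesis, was 254 CPM in B1 and 8.87 in D4, 20.4 in A2, 9.04 in A5 and 13.9 in D6. Zic1, a zinc finger factor that marks classical brown fat lineages in mice, was 1.40 CPM in B1 and 32.4 to 38.1 CPM in the other 4 lines. In the low-Adipoq lines Zic1 was 29.1 CPM in B5 and 39.8 in B6, against 0.16 in A3, 3.03 in C5 and 0.77 in B3. Low Zic1 was thus found in both classes, in 1 high-Adipoq and 3 low-Adipoq lines.

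The transcription factors of adipogenesis were higher in the high-Adipoq class for 19 of 24 genes that passed the count filter, with a median of 0.41 that was 0.12 without A3 and C5. Cebpa was 631 CPM in D4, 511 in B1, 809 in A2, 730 in A5 and 649 in D6. It was 573 CPM in B5, 559 in B6, 311 in A3, 223 in C5 and 333 in B3, so B5 and B6 reached the range of the high-Adipoq lines, where B1 was lowest. Pparg averaged 546 ± 67.6 against 405 ± 191 CPM (SD, n = 5 each), and its highest level of the 18 lines was in the low-Adipoq line B6, at 697 CPM. Cebpb averaged 45.0 ± 9.88 against 45.3 ± 19.3 CPM, a difference far within the spread. Klf4, an early inducer of Cebpb, averaged 8.05 ± 5.43 against 36.7 ± 34.9 CPM, with A3 at 89.4 CPM. Of 27 inhibitors of adipogenesis 23 were lower in the high-Adipoq class, with a median of -0.38 that was -0.08 without A3 and C5. Gata3 averaged 1.41 ± 0.66 against 6.32 ± 4.59 CPM, and Dlk1 61.3 ± 108 against 280 ± 318 CPM, with C5 at 783 and B5 at 6.28 CPM.

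Genes of the cell cycle and of other cell types were also read on day 8. Of 33 cell cycle genes 23 were higher in the high-Adipoq class, with a median of 0.09 that was 0.26 without A3 and C5. Mki67, a proliferation marker, averaged 280 ± 115 against 213 ± 75.8 CPM (SD, n = 5 each). The 8 endothelial genes summed to 0.94 to 8.53 CPM in high-Adipoq and 1.41 to 20.3 CPM in low-Adipoq lines, and the 8 immune genes to 2.59 to 8.72 and 2.95 to 9.08 CPM, with 5 and 4 of them under 1 CPM in all 10 lines and 2 immune genes at 0. Skeletal muscle genes summed to 30.1 to 52.7 and 9.01 to 105 CPM, mostly desmin, and 8 of 10 were under 1 CPM in all 10 lines. Schwann and neural genes summed to 11.4 to 25.8 and 7.95 to 112 CPM, pericyte genes to 205 to 345 and 183 to 369 CPM, and cartilage and bone genes to 45.0 to 141 and 58.7 to 149 CPM. What part these genes have in the class differences was not tested.

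The undifferentiated libraries of the same lines were not used to choose them, so they were tested. The comparison asks whether cells of lines that later reach high or low Adipoq already differ before induction. Total counts on genes were 19535806 to 26875388 in undifferentiated and 27181830 to 43113838 in day 8 libraries of these 10 lines. By edgeR's quasi-likelihood F-test with Benjamini-Hochberg adjustment, 0 of 13305 genes passed an adjusted p of 0.05 in either direction (0% of the genes), and the smallest adjusted p was 0.999983. An unadjusted p under 0.05 was found for 187 genes, or 1.41% of those tested, of which 101 were higher and 86 lower in the high-Adipoq lines. With no differences at all a share of 0.05 of the genes would be expected there, so the p-values as a set ran high. The reason was not tested. DESeq2 and limma-voom also called 0 genes, with 219 and 171 at an unadjusted p under 0.05. A count of 0 calls does not show that the classes were alike. In undifferentiated cells 12 genes (0.0902%) were higher and 11 (0.0827%) lower without overlap. Adipoq itself was 0 or 1 count in every one of the 10 libraries, and Cfd was at 0 counts in all, below the 3-count limit of 0.11 to 0.15 CPM.

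The genes with the smallest p, not called, are shown for their values. Sema3d, a secreted semaphorin, was 36.8 CPM in D4, 5.94 in B1, 14.9 in A2, 4.43 in A5 and 5.59 in D6, against 4.39 in B5, 2.93 in B6, 2.91 in A3, 1.00 in C5 and 1.24 in B3. The classes did not overlap, but A5 and B5 nearly met and the high mean rested on D4 and A2 (log2 difference 2.45 ± 0.66 SE, unadjusted p = 0.00334 and adjusted p = 0.999983 in edgeR). With Adipoq as a continuous measure over the 18 lines, Sema3d came to 3.06 per doubling of Adipoq and Cadm4, a cell adhesion molecule, to -2.31, both with an adjusted p of 0.0581 in edgeR. Over the alternatives that compare 2 classes and the left-out lines, the Sema3d difference was 0.95 to 2.74, and with the line letter as a factor it was 1.38. C230081A13Rik, Slc22a17, Zfp286, and Tap1, a peptide transporter of antigen presentation, were also higher, by 0.49, 0.75, 1.26 and 0.56 on the log2 scale, each with overlapping classes.

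Hcfc1r1, Dpp7, a lysosomal dipeptidase, and Eno2, the neuronal form of enolase, were lower in every high-Adipoq line than in every low-Adipoq line, by -0.45, -0.54 and -0.71 on the log2 scale (adjusted p = 0.999983 in edgeR). Eno2 was 5.48 CPM in D4, 5.24 in B1, 5.96 in A2, 4.97 in A5 and 6.41 in D6, against 6.80 in B5, 9.77 in B6, 9.18 in A3, 7.29 in C5 and 12.8 in B3. Renbp, a renin-binding epimerase, averaged 2.37 ± 0.99 against 7.85 ± 5.97 CPM (SD, n = 5 each). Asb4, a substrate adaptor of ubiquitin ligases, had the largest fitted difference, -6.05 ± 1.68 (SE), and it rested on 2 lines. It was 65.2 CPM in A3 and 109 in C5 and under 1 CPM in the other 8 lines, and 140 and 107 CPM in the middle lines C2 and C3. Without A3 and C5 the difference was -0.05, and with the line letter as a factor it was -3.53.

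**Figure D4:**
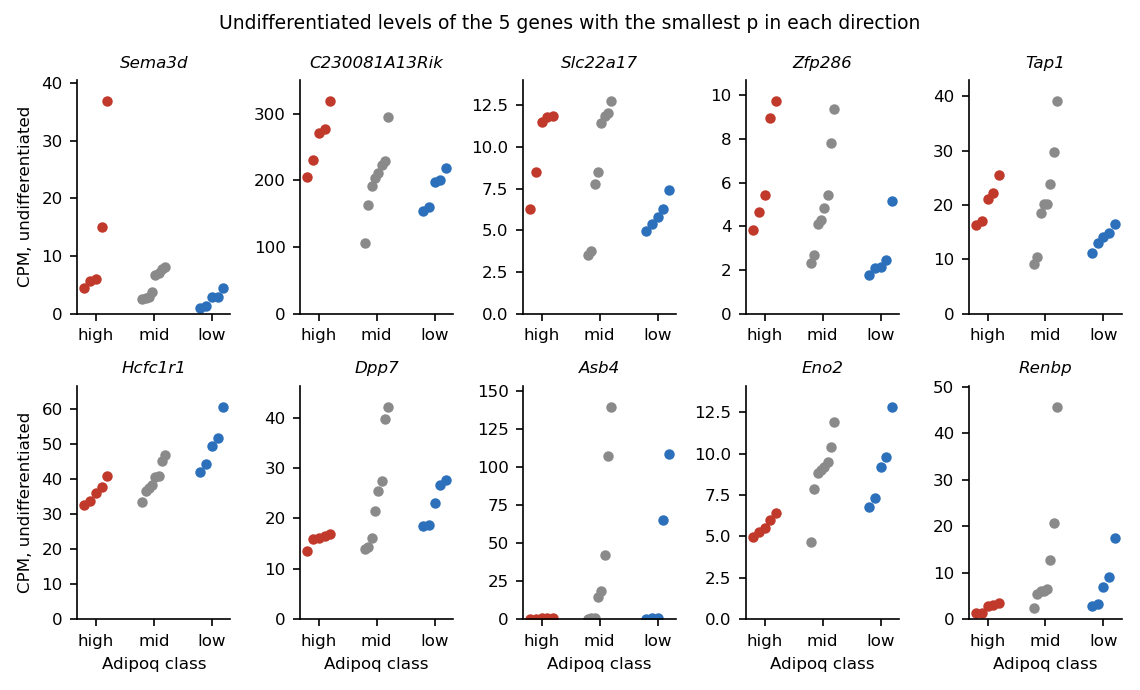
Undifferentiated levels (vertical axes, TMM-scaled CPM from 0) of the 5 genes with the smallest p in each direction, by Adipoq class (horizontal axis); each point is 1 line, and 0 of these genes passed the adjusted threshold. Asb4 is high in 2 of the 5 low-Adipoq lines (65.2 and 109 CPM) and in some middle lines, and Sema3d reaches 36.8 CPM in 1 high-Adipoq line.

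Regulators of adipogenesis spread widely within each class before induction. Pparg was 122 CPM in D4, 40.0 in B1, 64.0 in A2, 71.0 in A5 and 47.9 in D6. In the low-Adipoq lines it was 60.0 CPM in B5, 163 in B6, 12.4 in A3, 11.8 in C5 and 43.3 in B3. The low class held both the highest and the lowest values (log2 difference 0.24 ± 0.65 SE, adjusted p = 0.999983 in edgeR). Its sign turned without D4, A3 or C5. Cebpa was 53.3 CPM in D4, 2.70 in B1, 105 in A2, 87.7 in A5 and 47.6 in D6, against 93.7 in B5, 81.6 in B6, 4.59 in A3, 3.48 in C5 and 10.4 in B3. Here B1 was at the level of A3 and C5, B5 and B6 were at the level of A2 and A5, and the whole low-Adipoq range lay inside the high-Adipoq range (0.61 ± 1.00 SE). Cebpb averaged 5.89 ± 2.27 against 9.05 ± 2.91 CPM (-0.62 ± 0.33 SE), and Zfp423, an early commitment factor, 5.21 ± 4.999 against 2.31 ± 3.07 CPM (1.17 ± 0.89 SE). Klf15, a later activator of the programme, was 0.85 ± 0.70 against 0.38 ± 0.23 CPM (1.18 ± 0.59 SE). None of these passed the threshold, all with an adjusted p of 0.999983 in edgeR.

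Inhibitors and surface markers spread as widely. Wnt10b, a Wnt ligand that keeps preadipocytes undifferentiated, was 34.1 CPM in A3, 23.1 in C5 and 6.28 in B3, but 0.26 in B5 and 0.31 in B6. The high-Adipoq lines had 2.74 CPM in D4, 4.91 in B1, 0.26 in A2, 0.15 in A5 and 1.88 in D6. Wnt10b differed by -2.67 ± 1.28 (SE) and was not called (unadjusted p = 0.0602, adjusted p = 0.999983 in edgeR). Dlk1 averaged 31.2 ± 32.5 against 129 ± 128 CPM (SD, n = 5 each), from 3.87 CPM in B5 to 343 in B3 in the low class (-2.05 ± 1.00 SE). Cd34 was 264 CPM in A3, 398 in C5 and 62.6 in B3, and 148 CPM in B1, and at most 14.02 CPM in the other 6 lines (-2.05 ± 1.47 SE), and its difference was 0.62 without A3 and C5. Ly6a averaged 20.0 ± 13.4 against 56.5 ± 58.4 CPM (-1.49 ± 0.80 SE). Mki67 averaged 541 ± 68.2 against 497 ± 84.5 CPM (0.12 ± 0.13 SE), a difference within the spread. None of these was called, with an adjusted p of 0.999983 for each in edgeR.

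The gene lists had 0 called members in undifferentiated libraries, against 0% of all genes. Medians lay near 0: 0.03 for the 14 adipocyte genes tested, -0.04 for the 45 respiratory chain genes, 0.02 for the 22 transcription factors of adipogenesis, -0.06 for the 26 inhibitors and 0.003 for the 18 preadipocyte genes, beside -0.002 over all genes. The integrated stress response list was lower in the high-Adipoq class for 17 of 18 genes, with a median of -0.13, and the cholesterol synthesis list for 16 of 18, with a median of -0.08, where 50.7% of all genes were lower. Without A3 and C5, 13 and 10 of 18 were lower. With 1 line left out the stress response median ran from -0.21 to -0.05. The cholesterol synthesis median ran from -0.19 to 0.04, so its sign depended on single lines. The stress response list mean was 0.59 in B3, 0.28 in A3 and 0.06 in C5, but -0.07 in B5 and -0.23 in B6. Of the stress response genes 1 had an unadjusted p under 0.05 in edgeR. Of the 103 day 8 genes without overlap, 91 could be tested in undifferentiated libraries. Of these, 3 had an unadjusted p under 0.05 in edgeR (3.30%, against 1.41% of all genes), 0 were called, and 0 were without overlap at both stages. Chst1 was lower in undifferentiated high-Adipoq lines, 21.6 ± 7.47 against 34.7 ± 11.9 CPM (-0.69 ± 0.27 SE, unadjusted p = 0.0269, adjusted p = 0.999983 in edgeR), opposite to its day 8 difference. Hk1 averaged 165 against 160 CPM and Tgfbi 30.7 against 73.4 CPM, the latter with 196 CPM in B6. Endothelial genes summed to 3.35 to 8.03 CPM in undifferentiated high-Adipoq and 1.65 to 4.76 CPM in low-Adipoq lines, and immune genes to 3.65 to 7.05 and 4.49 to 6.66 CPM. Pericyte genes summed to 369 to 657 and 335 to 771 CPM, led by Pdgfrb, and cartilage and bone genes to 103 to 765 and 91.2 to 469 CPM, led by Col2a1, both sums reaching higher than on day 8. Schwann and neural genes summed to 22.7 to 57.7 and 16.5 to 60.5 CPM and skeletal muscle genes to 1.74 to 24.0 and 1.00 to 14.3 CPM. What part these genes have in the class differences was not tested.

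**Figure D5:**
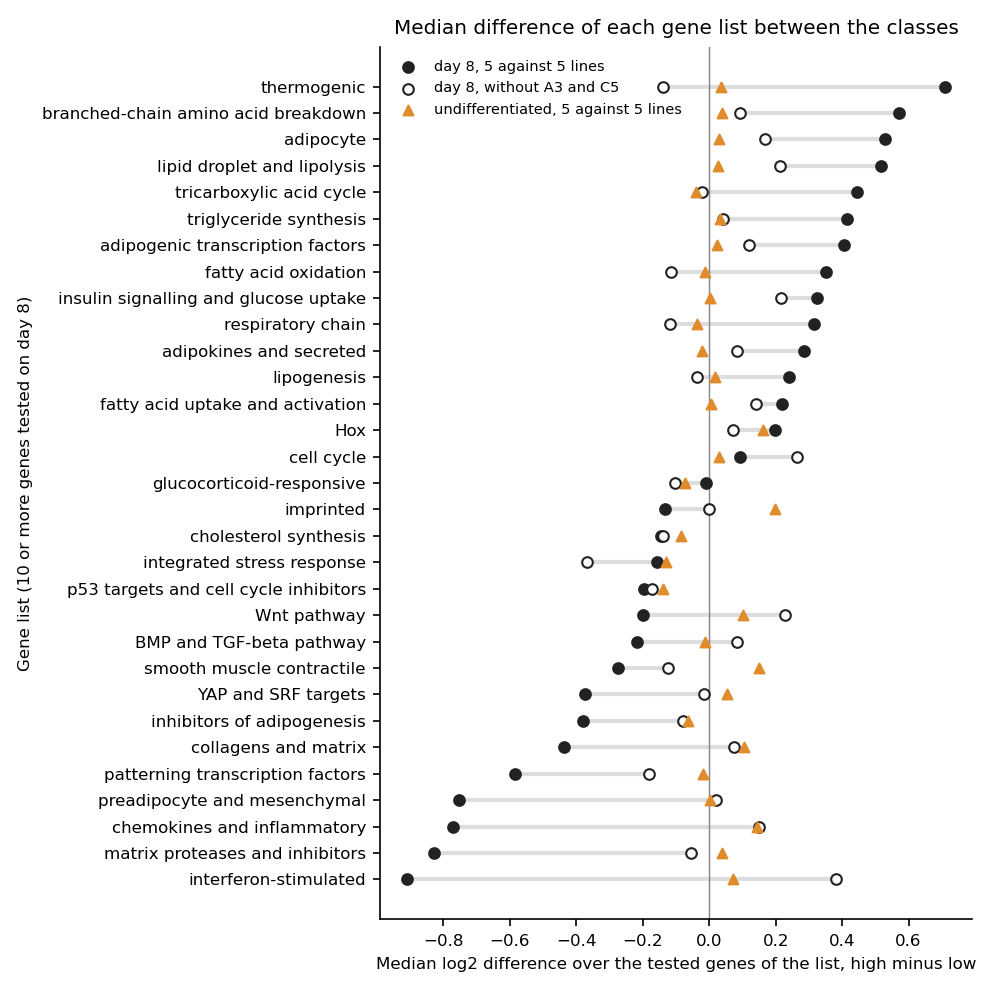
Median log2 difference, high-Adipoq minus low-Adipoq class (horizontal axis), of the tested genes of each list with 10 or more genes tested on day 8 (vertical axis): filled circles day 8 with all 10 lines, open circles day 8 without A3 and C5, triangles undifferentiated cells. The open circles and triangles lie closer to 0 than most filled circles, and the interferon list moves from -0.91 to 0.38 on day 8.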

How the data were processed

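The authors deposited whole-number read counts per gene symbol, 1 file per library, from poly(A)-selected, strand-specific 100 bp read pairs per the labels' protocols. STAR, HTSeq and mouse build mm9 are named in the submitters' processing notes; their versions, the annotation and the strand setting were not stated there, so overlapping antisense genes may share reads. Reads without a gene row (29.3 to 30.8% of undifferentiated and 20.1 to 23.6% of day 8 tallies) and symbols differing only in letter case (168 and 88) were left out.

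Undifferentiated counts were filtered (filterByExpr, minimum count 10), TMM-scaled and tested over 5 against 5 lines with edgeR 4.0.16 (R 4.3.3); the alternatives were DESeq2 1.42.0 and voom from limma 3.58.1. The SE is derived from the F statistic. The p-values measure the spread between lines. Day 8 levels were only described; log2 differences there use a prior count of 2. The limit for 0 counts is 3 counts and covers counting error only.

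Lines, the 38 gene lists and naming rules were chosen with earlier results of these data known. Undifferentiated genes named have the smallest p in each direction at 5 CPM or more, day 8 genes the 10 largest differences without overlap at 10 CPM or more. Up to 4 genes per list with the largest difference at 5 CPM or more and a fixed marker set were added, and Rxra, Lrp6, En1, Cidea, Cox7a1, Cadm4, Rpl39l and Srrm4 after their values were seen.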

Additional observations from a re-analysis of the deposited data

Results flagged for a closer look

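Among 218 groups of 5 libraries checked, 19 held a line far from the other 4 by the critical value of Dixon's test. That value is set so that chance alone passes it in about 1 group in 20 where values are normally distributed. CPM values need not be, so the rate may not hold here. In undifferentiated libraries B6 stood apart in the low-Adipoq class, with Zfp286 at 5.17 CPM against 1.76 to 2.44, Zfp423 at 7.66 against 0.29 to 1.98 and Fabp4 at 60.0 against 1.51 to 6.65 CPM. Dpp7 in D4 (13.5 CPM against 15.9 to 16.9) and Mki67 in D6 (661 CPM against 494 to 524) were single departures in the high-Adipoq class. B1 had Cd34 at 148 CPM against at most 14.02 and Ifit3 at 5.04 CPM against at most 0.82, and B3 had Ifit3 at 4.88 CPM against at most 1.19.

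On day 8, B1 was the line apart in 7 genes of the high-Adipoq class. It had Dlk1 at 254 CPM, Gata2 at 12.1, Ly6a at 314, Cd34 at 96.8, Klf4 at 17.7 and Mmp3 at 5.51 CPM, all above the other 4 lines, and Zic1 at 1.40 CPM, below them. D4 had Chst1 at 80.9 CPM against 33.3 to 46.1 and Rxra at 305 CPM against 234 to 253. In the low-Adipoq class B3 had Jun at 166 CPM and B6 had Prdm16 at 20.5 CPM against 1.16 to 6.34.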

How the results depend on the processing

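No paired analysis was possible because the classes hold different lines and share none. The undifferentiated count of calls was 0 under every other scaling, filter, tool, design and left-out line run, and 3 with lines ranked on the adipocyte list without Adipoq, where Asb4 (-7.10, adjusted p = 0.000786 in edgeR), Rpl39l (-9.76) and Srrm4 (-6.13) were lower in the high class. Against 19 genes apart on day 8 by at least 2-fold, leaving out 1 line gave 18 to 117 (B1 78, D6 29, B5 70, B6 117), no fold limit 103, leaving out A3 and C5 56 and ranking on TMM-scaled Adipoq 64; fewer libraries overlap less by construction. Of the 10 lines, 4 kept their class ranked on the adipocyte list, Plin1 or Cd36, 5 on Pparg and 6 on Fabp4 or Cfd. Signs turned, for genes not called, for Slc22a17 with C6 and D5 kept (-0.26), for Pparg without D4 (-0.069), A3 (-0.016), C5 (-0.014) or both last (-0.36), for Cebpa with the line letter as a factor (-0.067), and without A3 and C5 for Cebpa (-0.063), Cd34 (0.62) and Mki67 (-0.031); the cause was not tested. Alternatives with A3 and C5 left out together, and day 8 ranking on TMM-scaled Adipoq, Cebpa or Adrb3, were chosen after seeing the data. Of the day 8 list medians described, those of the transcription factors of adipogenesis (0.41) and fatty acid synthesis (0.24) also moved by over 1.5 times, to 0.24 without A3 and to 0.15 without B1, 0.16 without A3 or 0.14 without C5, and that of the cell cycle (0.09) ran from -0.01 without D4 to 0.19 without B1. With 5 lines a class that vary this widely, small differences were not detectable. Large undifferentiated differences were not called either, such as -6.05 for Asb4 and 2.45 for Sema3d on the log2 scale.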
